A study of Mus musculus with 12 samples.

Results

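The 10 genes described here mark the mast cell, basophil and eosinophil branches of bone marrow: Prg2, Epx, Il5ra, Hdc, Gata2, Cpa3, Ms4a2, Fcer1a, Mcpt8 and Gzmb. They were picked by symbol as markers of these lineages, with earlier results of these data known, and make up 10 of the 55450 genes counted. Each of the 10 passed the filter on low counts, which kept 14346 genes. RNA came from mouse bone marrow cells that lacked lineage markers and carried the receptor Kit (Lin- ckit+, called LK), sorted from the donor-derived cells of mice that had received a competitive transplant, in which donor and competitor marrow share 1 host. Libraries carried 1 of 4 genotype labels: WT, Tet2KO, Id1KO and dKO, which is read here as the double knockout of both genes, with 3 libraries each. What all groups share is the transplant setting, the LK sort and a stranded total RNA library with ribosomal RNA depleted. The strain, age, sex, time after transplant, the number of animals pooled and how the alleles were made are not given in the sources used here. Tet2 encodes a dioxygenase that oxidises methylated cytosine, and Id1 encodes an inhibitor of basic helix-loop-helix transcription factors.

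Eosinophils, basophils and mast cells are granulocytes of allergy and of defence against parasites. They arise in the marrow from progenitors that express Kit and GATA factors, and each lineage fills its granules with its own set of cationic proteins, proteases and amines. Eosinophils depend on interleukin 5, while mast cells and basophils carry the high-affinity IgE receptor, whose alpha chain binds the antibody, whose beta chain amplifies the signal and whose gamma chains carry it into the cell.

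Limits of the groups come first because they touch every test below. Library totals ran from 15706407 to 19959183 estimated counts. Gene-level Tet2 was 97.6 to 102 CPM (estimated counts scaled to a common library total) for WT, 127 to 132 for Tet2KO, 90.3 to 93.3 for Id1KO and 115 to 121 for dKO, and Id1 was 1.24 to 1.76, 3.61 to 4.35, 3.69 to 4.35 and 3.35 to 4.25 CPM in the same order. Libraries whose label removes a gene did not read less of that gene than WT. These counts do not show which exons were read, so they do not bear out the labels and cannot test them. Tet2KO, Id1KO and dKO below mean the libraries labelled so, also wherever a direction is given. Xist, the RNA that coats the inactive X chromosome, was 252 to 272 CPM for WT, 9.89 to 12 for Tet2KO, 60.5 to 69 for Id1KO and 16.3 to 17 for dKO, so whatever set Xist and the genotype label cannot be told apart. The titles give all libraries of a label 1 sample number, so they may be repeats of 1 cell sample, and the p-values measure the spread between these libraries. The libraries of each label were also summed and fitted as 1 value with additive effects of the 2 labels. In that fit 0 of 10 members were called in any of the 5 pairwise comparisons. The lowest adjusted p of the Tet2 label was 0.0547, for Ms4a2. The residual of that fit is the departure from additive effects, so an interaction of the labels makes a member harder to call. The lack of calls therefore does not measure the spread between cell samples. That fit called 232 genes in all for the Tet2 label, 7 for the Id1 label and 11 for both together, against 2229, 1428 and 1292 at an unadjusted p under 0.05.

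The promoter windows of 4 members are shown because their genes carry the contrasts described below: the genes of the IgE receptor's alpha and beta chains, whose levels moved apart, and the genes Epx and Il5ra, which were both higher in Id1KO and lower in dKO than in Id1KO. Each window is the 250 bases before the RefSeq start (GRCm38.p6), written 5′ to 3′ along the gene's strand, and capitals mark, on either strand, the words AGATAA (first form), TGATAA (next form), AGATAG (another form) and TGATAG (last form), which are forms of the sequence that GATA factors recognise.
Fcer1a (chr1:173227230-173227479, minus strand): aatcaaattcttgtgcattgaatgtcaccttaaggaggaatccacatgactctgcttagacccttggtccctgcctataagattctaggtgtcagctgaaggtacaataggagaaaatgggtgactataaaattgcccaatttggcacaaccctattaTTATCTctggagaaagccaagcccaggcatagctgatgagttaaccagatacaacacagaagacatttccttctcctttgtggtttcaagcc
Ms4a2 (chr19:11623720-11623969, minus strand): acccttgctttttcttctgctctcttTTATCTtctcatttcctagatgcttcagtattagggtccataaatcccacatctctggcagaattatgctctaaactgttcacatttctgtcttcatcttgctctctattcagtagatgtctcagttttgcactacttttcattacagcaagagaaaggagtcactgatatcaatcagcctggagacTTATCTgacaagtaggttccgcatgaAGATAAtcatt
Epx (chr11:87875537-87875786, minus strand): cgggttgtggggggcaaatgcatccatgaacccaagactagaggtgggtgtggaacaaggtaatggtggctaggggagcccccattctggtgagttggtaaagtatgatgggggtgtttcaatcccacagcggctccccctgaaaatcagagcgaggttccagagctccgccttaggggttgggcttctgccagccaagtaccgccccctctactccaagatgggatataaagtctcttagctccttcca
Il5ra (chr6:106749038-106749287, minus strand): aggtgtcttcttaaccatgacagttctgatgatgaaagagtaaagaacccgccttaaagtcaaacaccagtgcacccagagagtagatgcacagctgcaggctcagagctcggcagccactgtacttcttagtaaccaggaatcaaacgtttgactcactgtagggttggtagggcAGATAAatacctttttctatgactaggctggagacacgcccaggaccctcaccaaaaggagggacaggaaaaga
The Fcer1a window held 1 such word, beginning 92 bases before the start. That of Ms4a2 held 3, at 224, 37 and 11 bases. Il5ra held 1, at 74 bases, and Epx held none. Over the 9 members matched by symbol to the promoter table, 5 held a GATA word (Fcer1a, Hdc, Cpa3, Il5ra and Ms4a2), against 26.5% of 32851 promoters of the same length. The E-box CANNTG, the site of helix-loop-helix factors, lay in 7 of the 9 against 66.2% of promoters, and GAGGAA, a word read by ETS factors, lay in 2 of 9 against 23.3%. GATA and E-box words were counted separately and may overlap. These matches describe letters in a window and say nothing of binding.

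Among the members, Prg2 was the most abundant per length. In the WT libraries it reached 223 CPM per kilobase of exon, ahead of Cpa3 at 35.2, Mcpt8 at 31.9, Hdc at 18.8, Epx at 16.9, Gata2 at 14.9, Ms4a2 at 11, Fcer1a at 6.72, Gzmb at 3.83 and Il5ra at 0.274 on the same scale. All CPM, above and below, are scaled by TMM, which corrects library totals for composition. Means are ± SD over 3 libraries. Log2 fold changes (± SE) and adjusted p-values come from edgeR's quasi-likelihood test over all 14346 genes with Benjamini-Hochberg adjustment, called at 0.05. The 5 pairwise comparisons reuse the same 4 sets of libraries and are not independent of each other. In these bulk samples, fewer cells of a type and less RNA per cell cannot be told apart.

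**Figure D1:**
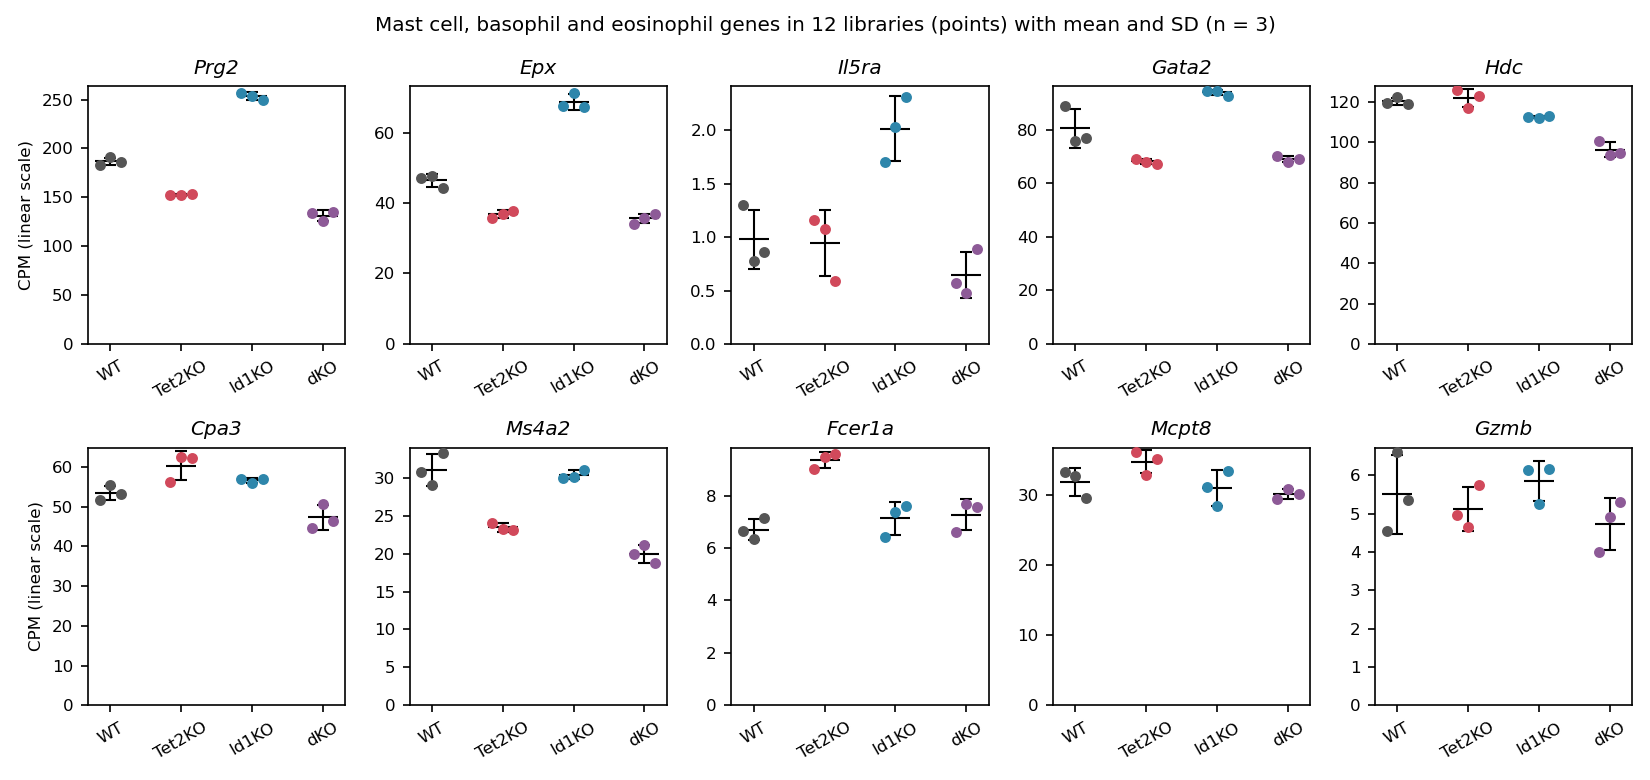
Level of each of the 10 members in CPM on a linear scale (y axis, from 0) in the 3 libraries of each genotype label (x axis); points are libraries, horizontal bars the mean and error bars the SD. Prg2, Epx, Il5ra and Gata2 stand highest in Id1KO, Hdc and Cpa3 lowest in dKO, and Mcpt8 and Gzmb overlap between most labels.

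The eosinophil granule genes Prg2 and Epx were lower in Tet2KO and dKO than in WT and higher in Id1KO. Prg2 (chromosome 2, 84980461 to 84983632, plus strand, GRCm38) encodes the precursor of eosinophil major basic protein, the crystalline core of the granule. Its levels were 183, 191 and 186 CPM in WT, 152, 152 and 154 in Tet2KO, 257, 254 and 249 in Id1KO and 134, 125 and 135 in dKO. No library of any label overlapped with those of another label, and the order was Id1KO, WT, Tet2KO and dKO. Against WT, Prg2 was 1.36-fold higher in Id1KO (log2 fold change 0.44 ± 0.029, adjusted p = 1.31e-09), 1.22-fold lower in Tet2KO (-0.29 ± 0.03, 3.32e-07) and 1.42-fold lower in dKO (-0.51 ± 0.031, 3e-10). Between dKO and Id1KO the difference was 1.93-fold (-0.95 ± 0.03, adjusted p = 6.74e-15).

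Epx (chromosome 11, 87864000 to 87875536, minus strand) encodes eosinophil peroxidase, which makes hypohalous acids from hydrogen peroxide. It was read at 47.2, 47.8 and 44.1 CPM in WT, 35.7, 36.9 and 37.8 in Tet2KO, 67.5, 71.3 and 67.2 in Id1KO and 34.1, 35.9 and 36.9 in dKO. Tet2KO and dKO overlapped, and both lay below WT, which lay below Id1KO. Epx was 1.48-fold higher in Id1KO than in WT (log2 fold change 0.57 ± 0.044, adjusted p = 1.76e-08), 1.26-fold lower in Tet2KO (-0.33 ± 0.048, 2.07e-05) and 1.93-fold lower in dKO than in Id1KO (-0.95 ± 0.047, 1.35e-11). Between dKO and Tet2KO it was not called (-0.05, 95% interval -0.15 to 0.06). The ratio of Prg2 to Epx per kilobase stayed between 11.4 and 13.9 in the 12 libraries, with means of 13.2 in WT, 13.6 in Tet2KO and 12.1 in both Id1KO and dKO.

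Il5ra (chromosome 6, 106710357 to 106749037, minus strand) encodes the alpha chain of the interleukin 5 receptor, which gives eosinophil precursors their response to that cytokine. It was the rarest member. Its counts were 25, 15 and 16 in WT, 19, 18 and 11 in Tet2KO, 31, 39 and 42 in Id1KO and 9, 8 and 15 in dKO, so its precision is set by few reads. As CPM that is 0.978 ± 0.279 for WT, 0.943 ± 0.307 for Tet2KO, 2.01 ± 0.305 for Id1KO and 0.645 ± 0.214 for dKO. Id1KO lay above every other library, and the other labels overlapped. Il5ra was 2.05-fold higher in Id1KO than in WT (log2 fold change 1.04 ± 0.27, adjusted p = 0.0116) and 3.09-fold lower in dKO than in Id1KO (-1.63 ± 0.32, 0.000544). The first call was lost without WT replicate 2 (0.89, adjusted p = 0.0569) or without Id1KO replicate 3 (0.93, 0.0562), whereas the second held in each leave-one-out fit. A stretch of 105 bases of its exons matches 0610005C13Rik and Olfr1219 at 95.2% identity, so some of its reads may have been assigned between genes.

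Gata2 (chromosome 6, 88193891 to 88207032, plus strand) encodes a zinc-finger factor of stem cells and of mast cell, basophil and eosinophil progenitors. It read 88.8, 75.7 and 76.9 CPM in WT, 69.2, 68.1 and 67.4 in Tet2KO, 94.4, 94.6 and 92.7 in Id1KO and 70.2, 68.1 and 68.9 in dKO. WT replicate 1 stood above the other 2 WT libraries, yet Id1KO lay above all 3 and the Tet2-null labels below. Gata2 was 1.17-fold higher in Id1KO than in WT (log2 fold change 0.22 ± 0.044, adjusted p = 0.00176), 1.18-fold lower in Tet2KO (-0.24 ± 0.047, 0.000499) and 1.36-fold lower in dKO than in Id1KO (-0.44 ± 0.046, 6.83e-07). Over the 12 libraries its level correlated with Epx at Pearson's r = 0.95 and with Prg2 at 0.92, values that describe libraries sharing 4 labels and carry no test.

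The subunits of the IgE receptor did not move together. Fcer1a (chromosome 1, 173221284 to 173227214, minus strand), the antibody-binding alpha chain, read 6.64, 6.34 and 7.13 CPM in WT, 9.01, 9.47 and 9.59 in Tet2KO, 6.42, 7.39 and 7.59 in Id1KO and 6.59, 7.66 and 7.56 in dKO. Tet2KO stood above all other libraries, which overlapped with each other. Fcer1a was 1.4-fold higher in Tet2KO than in WT (log2 fold change 0.48 ± 0.098, adjusted p = 0.000751) and 1.29-fold lower in dKO than in Tet2KO (-0.36 ± 0.099, 0.00992). The second call was lost without dKO replicate 1 (-0.30, adjusted p = 0.0517). In dKO against Id1KO it was not called (0.03, 95% interval -0.18 to 0.24).

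Ms4a2 (chromosome 19, 11615523 to 11623719, minus strand), the signal-amplifying beta chain, read 30.7, 29.1 and 33.2 CPM in WT, 24.1, 23.2 and 23.0 in Tet2KO, 29.9, 30.1 and 31.0 in Id1KO and 19.9, 21.1 and 18.7 in dKO. Both Tet2-null labels lay below WT and Id1KO, which overlapped. Ms4a2 was 1.32-fold lower in Tet2KO than in WT (log2 fold change -0.40 ± 0.058, adjusted p = 1.98e-05), 1.56-fold lower in dKO than in WT (-0.64 ± 0.06, 1.64e-07) and 1.53-fold lower in dKO than in Id1KO (-0.61 ± 0.06, 3.17e-07). It was also 1.18-fold lower in dKO than in Tet2KO (-0.24 ± 0.063, 0.00882), a call lost without dKO replicate 3 (-0.19, adjusted p = 0.0537). Id1KO against WT was not called (-0.03, 95% interval -0.14 to 0.09).

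Within a library, the alpha chain's level over the beta chain's, each per kilobase of exon, does not depend on the scaling of libraries. This ratio was chosen after the values were seen and is given without a test. It was 0.605 to 0.615 in WT and 0.605 to 0.691 in Id1KO, and 1.05 to 1.17 in Tet2KO and 0.934 to 1.14 in dKO. The 6 libraries labelled Tet2-null thus lay above the other 6. Fcer1g, the gamma chain that other Fc receptors also use, was 38.3 to 41.4 CPM per kilobase in WT, above both partners, and its ratio to Ms4a2 was 3.63 ± 0.381 for WT, 5.46 ± 0.167 for Tet2KO, 3.09 ± 0.254 for Id1KO and 5.71 ± 0.485 for dKO. Fcer1g itself was called higher in Tet2KO than in WT (log2 fold change 0.19 ± 0.055, adjusted p = 0.0107) and lower in Id1KO (-0.26 ± 0.057, 0.00375).

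**Figure D2:**
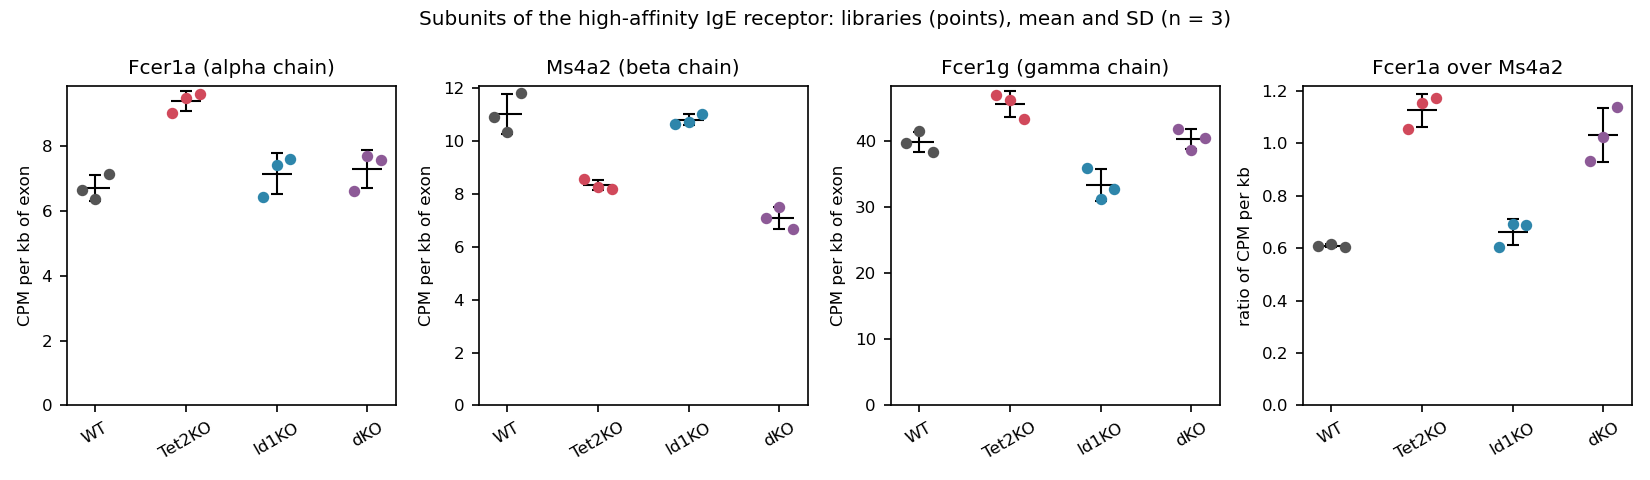
Levels of the 3 chains of the IgE receptor in CPM per kilobase of exon, and the ratio of Fcer1a to Ms4a2 on that scale (y axes, from 0), by genotype label (x axis); points are libraries, with mean and SD (n = 3). Fcer1a is highest in Tet2KO and Ms4a2 is lowest in dKO, and the ratio is 0.605 to 0.691 in WT and Id1KO against 0.934 to 1.17 in Tet2KO and dKO.

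Of the amine and protease genes of mast cells and basophils, Hdc and Cpa3 were lowest in dKO. Hdc (chromosome 2, 126593667 to 126619299, minus strand) encodes histidine decarboxylase, the enzyme that makes histamine. It read 119, 122 and 119 CPM in WT, 126, 117 and 123 in Tet2KO, 112, 112 and 113 in Id1KO and 101, 93.5 and 94.9 in dKO. The dKO libraries lay below all 9 others. Hdc was 1.25-fold lower in dKO than in WT (log2 fold change -0.32 ± 0.034, adjusted p = 8.81e-07), 1.26-fold lower than in Tet2KO (-0.34 ± 0.034, 4.18e-07) and 1.17-fold lower than in Id1KO (-0.22 ± 0.034, 8.17e-05). In Id1KO against WT it passed the threshold narrowly (-0.10 ± 0.033, 0.0496), and that call was lost in 10 of 12 leave-one-out fits, with an adjusted p of up to 0.172. Tet2KO against WT was not called (0.02, 95% interval -0.05 to 0.09).

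Cpa3 (chromosome 3, 20215620 to 20242181, minus strand) encodes carboxypeptidase A3, a granule protease of mast cells and their progenitors. Its levels were 51.8, 55.4 and 53.2 CPM in WT, 56.2, 62.5 and 62.2 in Tet2KO, 57.1, 55.8 and 56.9 in Id1KO and 44.7, 50.8 and 46.5 in dKO. All 3 dKO libraries lay below those of the other labels. Cpa3 was 1.13-fold higher in Tet2KO than in WT (log2 fold change 0.18 ± 0.049, adjusted p = 0.00885), 1.28-fold lower in dKO than in Tet2KO (-0.35 ± 0.051, 3.54e-05) and 1.2-fold lower in dKO than in Id1KO (-0.26 ± 0.051, 0.00102). In dKO against WT it was called lower (-0.18 ± 0.051, 0.019), a call lost in 4 of 12 leave-one-out fits (without WT replicate 2, WT replicate 3, dKO replicate 1 or dKO replicate 3), with an adjusted p of up to 0.104.

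The serine protease genes Mcpt8 and Gzmb had 1 call between them in the 6 tests. Mcpt8 (chromosome 14, 56082166 to 56085273, minus strand) encodes mast cell protease 8, a granule protease that marks mouse basophils despite its name. It was 31.8 ± 1.94 CPM for WT, 34.7 ± 1.65 for Tet2KO, 31.0 ± 2.55 for Id1KO and 30.1 ± 0.743 for dKO. Its single call was 1.15-fold lower in dKO than in Tet2KO (log2 fold change -0.20 ± 0.062, adjusted p = 0.0203), lost in 3 of 12 leave-one-out fits (without Tet2KO replicate 1, Tet2KO replicate 3 or dKO replicate 1), with an adjusted p of up to 0.0836. Against WT, the 95% intervals ran from -0.00 to 0.25 for Tet2KO, -0.17 to 0.09 for Id1KO and -0.21 to 0.05 for dKO on the log2 scale.

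Gzmb (chromosome 14, 56258838 to 56262260, minus strand) encodes granzyme B, a protease of cytotoxic lymphocytes that mast cells and basophils can also hold. It was 5.50 ± 1.03 CPM for WT, 5.12 ± 0.575 for Tet2KO, 5.86 ± 0.52 for Id1KO and 4.74 ± 0.677 for dKO, and it was called in none of the 6 tests. The smallest unadjusted p was 0.0548, in dKO against Id1KO (log2 fold change -0.30, 95% interval -0.61 to 0.01). Genes of cytotoxic lymphocytes stood beside it at low counts: Prf1, the perforin gene, had 0 to 5 per library and Gzma 0 to 5, while Nkg7, a granule membrane gene, was 140 CPM in WT and 117 in dKO. The summed level of that list of 20 genes was 142 to 147 CPM for WT, 154 to 157 for Tet2KO, 136 to 138 for Id1KO and 120 to 128 for dKO, nearly all of it Nkg7, and its part in the Gzmb values was not tested.

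**Figure D3:**
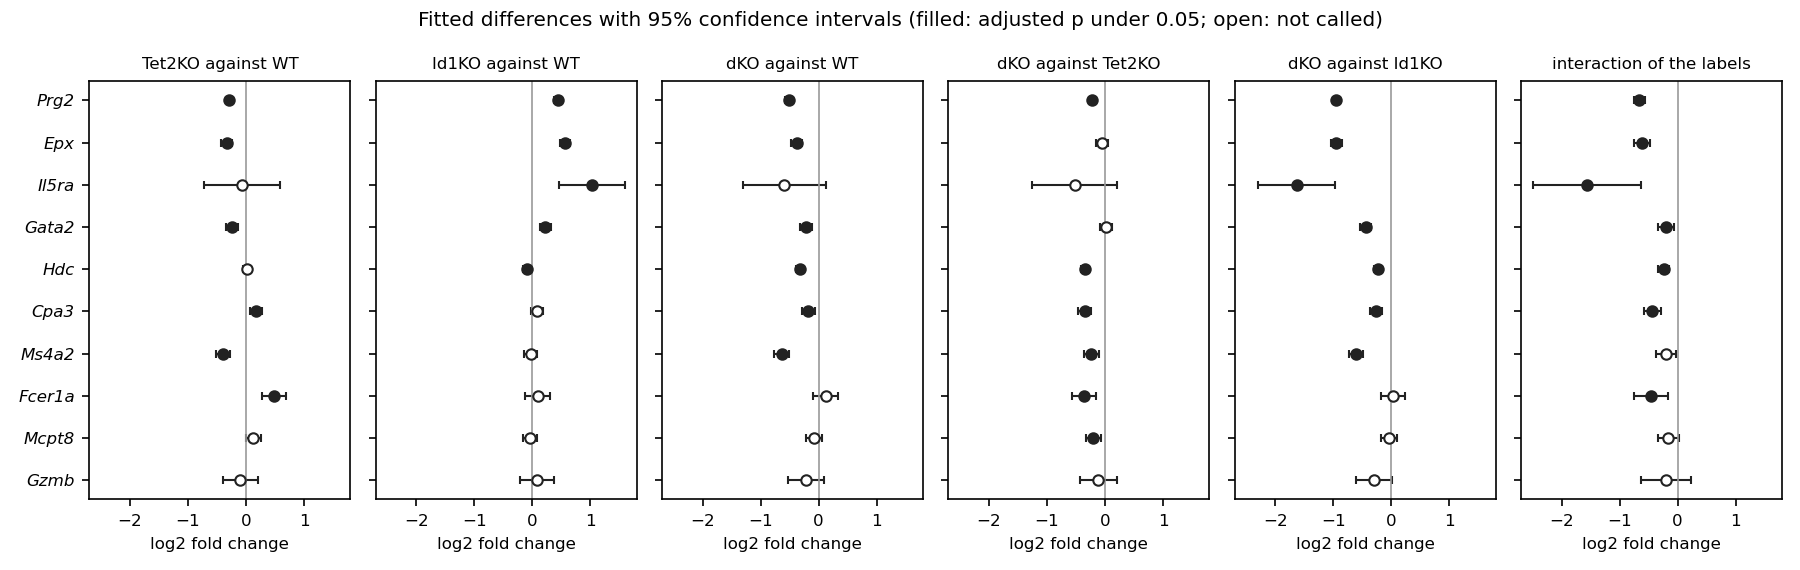
Fitted log2 fold change of each member (x axis) with its 95% confidence interval in the 5 pairwise comparisons and the interaction of the labels; filled points passed an adjusted p of 0.05 and open points did not. Filled points lie on both sides of 0 in the first 2 panels and below 0 in the other 4.

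Counted over the 10 members, the comparisons differed in direction. In Tet2KO against WT, 2 were called higher (Fcer1a and Cpa3) and 4 lower (Prg2, Epx, Gata2 and Ms4a2), where 32.8% of all genes tested were called, 16.6% higher and 16.2% lower. In Id1KO against WT, 4 were called higher (Prg2, Epx, Il5ra and Gata2) and 1 lower (Hdc), where 15% of all genes were called, 7.26% higher and 7.77% lower. In dKO against WT, 0 were called higher and 6 lower (Prg2, Epx, Hdc, Gata2, Cpa3 and Ms4a2), where 19.2% of all genes were called, 10.2% higher and 8.97% lower. The members' median log2 fold changes in these 3 comparisons were -0.09, 0.09 and -0.27, beside -0.00, -0.01 and -0.00 over all genes tested.

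In dKO against Tet2KO, 0 were called higher and 6 lower (Prg2, Hdc, Cpa3, Ms4a2, Fcer1a and Mcpt8), where 26.4% of all genes were called, 13.1% higher and 13.4% lower, with a median of -0.23 for the members. In dKO against Id1KO, 0 were called higher and 7 lower (Prg2, Epx, Il5ra, Hdc, Gata2, Cpa3 and Ms4a2), where 19.3% were called, 10.6% higher and 8.7% lower, with a median of -0.37. The medians over all genes tested were -0.00 in both. The 2 sets of libraries did not overlap for 6 of 10 members in Tet2KO against WT, 6 in Id1KO against WT, 6 in dKO against WT, 6 for dKO against Tet2KO and 7 for dKO against Id1KO, beside 46%, 32.7%, 33.1%, 39.9% and 33.2% of all genes tested. These were the called members, joined by Cpa3 in Id1KO against WT (0.08, adjusted p = 0.283). The summed level of the 10 members, in which Prg2 has the largest share, was 555 to 568 CPM for WT, 508 to 518 for Tet2KO, 660 to 664 for Id1KO and 438 to 444 for dKO.

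Because the Tet2 label can be compared in 2 pairs of labels that share no library, the same difference was read in each. Tet2KO against WT and dKO against Id1KO both called Prg2, Epx, Gata2 and Ms4a2 lower, 4 of 10 members, where 3.2% of all genes tested were called lower in both, and 0 higher in both, where 6.21% were. For Ms4a2 the log2 fold changes were -0.40 and -0.61, for Gata2 -0.24 and -0.44, for Prg2 -0.29 and -0.95 and for Epx -0.33 and -0.95. Fcer1a was 0.48 and 0.03, and Cpa3 0.18 and -0.26, called in opposite directions.

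The Id1 label, read in Id1KO against WT and in dKO against Tet2KO, called only Hdc of the 10 members lower in both (-0.10, the unstable call above, and -0.34), where 3.26% of all genes were, and none higher in both, where 2.04% were. Prg2 was called in opposite directions (0.44 and -0.22). Epx and Gata2 were higher in Id1KO against WT (0.57 and 0.22) and were not called in dKO against Tet2KO (-0.05, 95% interval -0.15 to 0.06, and 0.02, 95% interval -0.08 to 0.12).

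**Figure D4:**
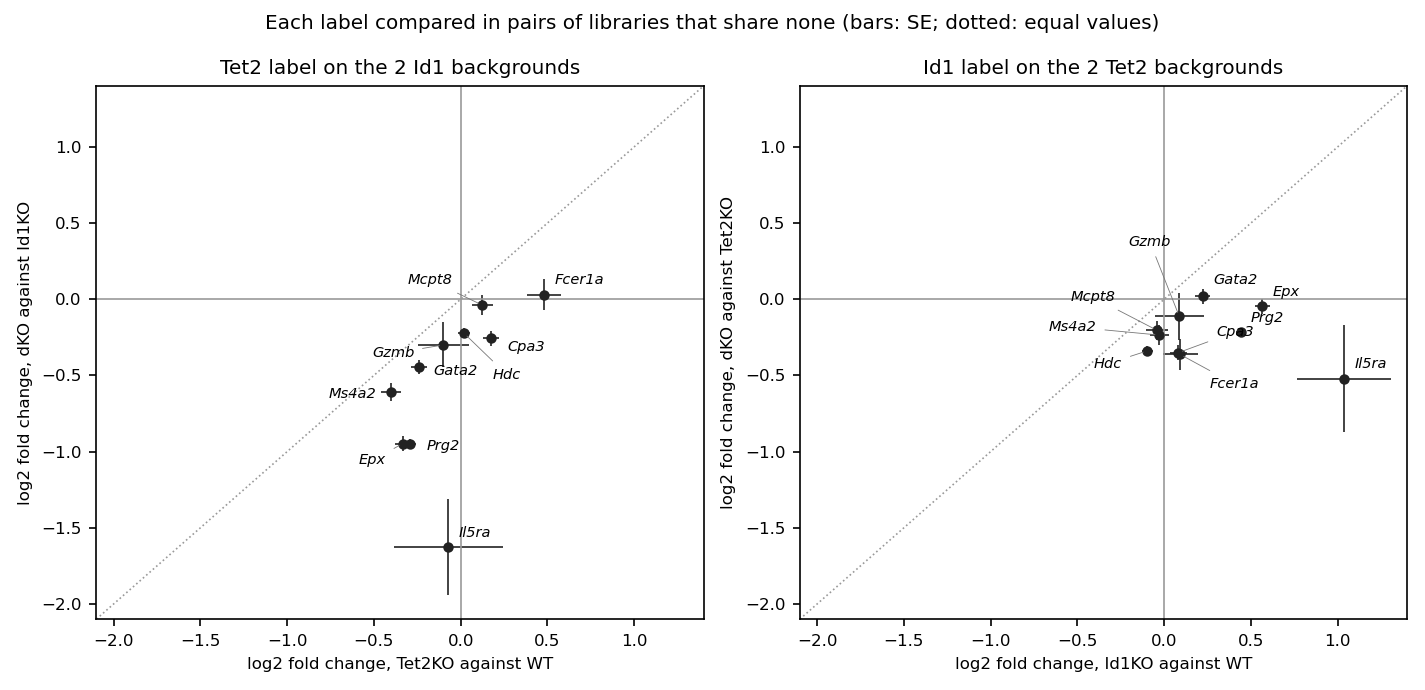
Log2 fold change of each member for the Tet2 label (left: Tet2KO against WT on x, dKO against Id1KO on y) and for the Id1 label (right: Id1KO against WT on x, dKO against Tet2KO on y), with SE bars and a dotted line of equal values. On the left Prg2, Epx, Gata2 and Ms4a2 lie below 0 on both axes, and in both panels each member lies below the dotted line. The vertical distance from that line is the interaction of the labels in either panel, so the panels do not repeat each other independently. That interaction was not called for Ms4a2, Mcpt8 and Gzmb.

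The test of the difference itself, the interaction of the 2 labels, asks whether dKO departed from the sum of the 2 single-label differences on the log2 scale. It called 7 members, each below 0, where 14.5% of all genes tested were called, 7.03% below 0 and 7.46% above. They were Prg2 (-0.66 ± 0.042, adjusted p = 1.05e-09), Epx (-0.61 ± 0.067, 2.66e-06), Cpa3 (-0.43 ± 0.07, 0.000301), Hdc (-0.24 ± 0.047, 0.0017), Il5ra (-1.56 ± 0.45, 0.0211), Fcer1a (-0.45 ± 0.14, 0.036) and Gata2 (-0.20 ± 0.066, 0.0428). The members' median was -0.34, beside 0.01 over all genes. For Prg2, Epx, Cpa3 and Hdc the call held in each leave-one-out fit. That of Il5ra was lost without Tet2KO replicate 1 (-1.38, adjusted p = 0.0677) or Tet2KO replicate 2 (-1.45, 0.0605), that of Fcer1a in 7 of 12 such fits (up to 0.0854) and that of Gata2 in 9 of 12 (up to 0.0989). DESeq2 called 4 members for the interaction.

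Other eosinophil genes were read from a list of 16, of which 11 were tested. In dKO against Id1KO, 1 was called higher and 6 lower (median log2 fold change -0.23), beside 19.3% of all genes called in either direction. In Id1KO against WT 2 were higher and 2 lower (0.08), beside 15%. In Tet2KO against WT 3 were higher and 3 lower (-0.03), beside 32.8%. Prg3, a paralog of Prg2 whose protein also fills the eosinophil granule, was 8.67 ± 0.172 CPM for WT, 6.82 ± 1.02 for Tet2KO, 10.3 ± 0.587 for Id1KO and 5.45 ± 0.633 for dKO, the same order as Prg2. It was called lower in Tet2KO than in WT (-0.34 ± 0.11, adjusted p = 0.0211) and lower in dKO than in Id1KO (-0.91 ± 0.11, 6.82e-06). In Id1KO against WT Prg3 was not called (0.25 ± 0.1, 0.116). Ear1 and Ear6, eosinophil-associated ribonucleases, were higher in Id1KO than in WT (0.91 ± 0.17, adjusted p = 0.00097, and 0.80 ± 0.12, 0.000117). Ear2, a further one, was not called there (0.51 ± 0.2, 0.09). Unlike Prg2, Ear1 and Ear6 were not called against WT in Tet2KO (0.31 and -0.04) or in dKO (0.24 and -0.14). Ear1 and Ear6 were called lower in dKO than in Id1KO (-0.67, adjusted p = 0.00757, and -0.94, 1.76e-05). These ribonucleases are near copies of each other, so their reads may be split among them.

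Not every gene of the eosinophil list followed. Siglecf, a sialic acid receptor of eosinophils, was higher in Tet2KO than in WT (log2 fold change 0.21 ± 0.06, adjusted p = 0.0113) and lower in dKO (-0.28 ± 0.064, 0.00355), and Fcgr3, a low-affinity Fc receptor that many myeloid cells carry, was lower in Id1KO (-0.28, 1.4e-05). Cebpe, a factor of granule gene expression in eosinophils and neutrophils, did follow, with mean levels in the same order as those of Prg2. It was lower than in WT in Tet2KO (-0.22 ± 0.059, 0.00704) and in dKO (-0.48 ± 0.062, 9.56e-06). Cebpe was also lower in dKO than in Id1KO (-0.57 ± 0.061, 1.09e-06), and its interaction was called below 0 (-0.35 ± 0.085, 0.00932). In Id1KO against WT it was not called (0.08, adjusted p = 0.351). The largest called differences of the list in Tet2KO against WT were those of the inhibitory receptor gene Pirb, which was higher (0.75 ± 0.13, 9.77e-05), and of the pseudokinase gene Trib1, which was lower (-0.49 ± 0.079, 7.39e-05). Xbp1, the secretory pathway factor and the most abundant gene of the list at 140 CPM in WT, was called in no comparison. Of the 5 genes of the list that were not tested, the chemokine receptor gene Ccr3 had 0 to 8 counts per library and the cytokine gene Il5 0 to 1, whereas Siglecf was read at 298 to 504.

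**Figure D5:**
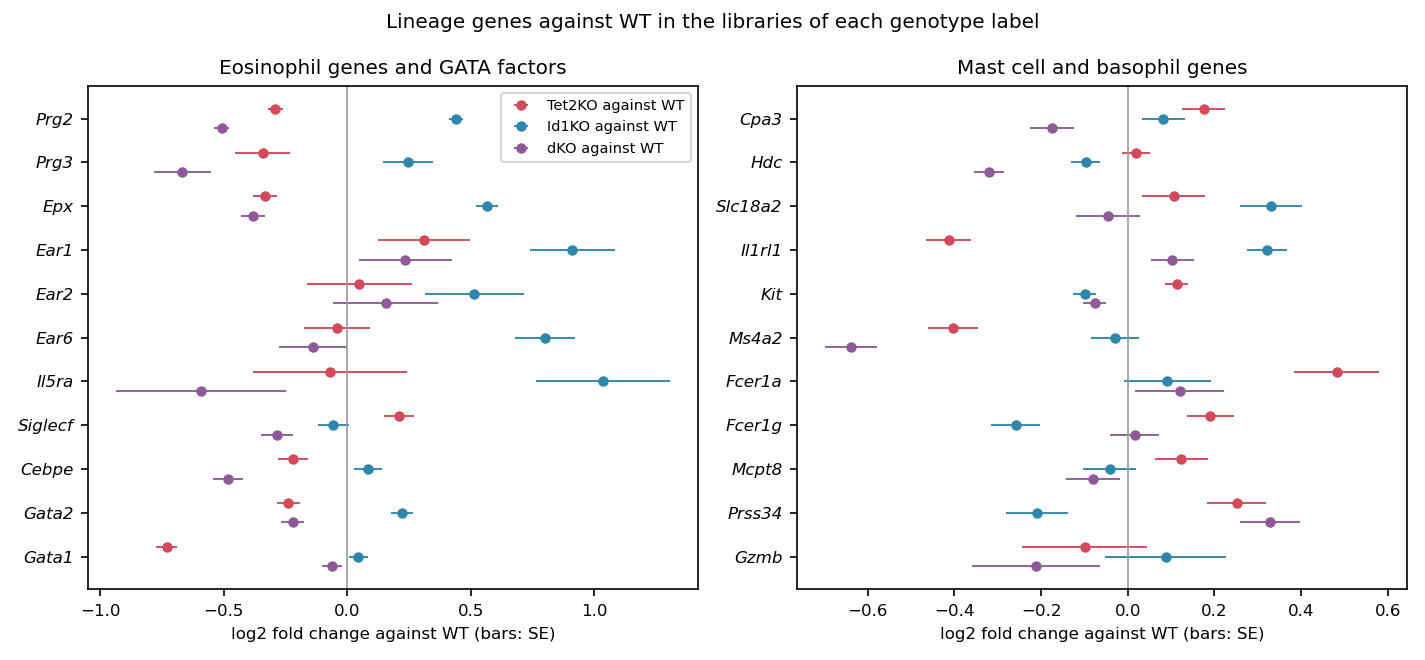
Log2 fold change against WT (x axis) with SE for chosen eosinophil genes and GATA factors (left) and chosen mast cell and basophil genes (right), colored by genotype label. Other tested genes of these lists are not shown, among them Pirb, Fcgr3, Trib1, Xbp1, S100a10, Maob, Aqp9 and Ifitm1, and some of them went the other way. Prg2, Prg3 and Epx are below 0 in Tet2KO and dKO and above 0 in Id1KO, while Prss34 is above 0 in Tet2KO and dKO.

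Genes of mature mast cells were almost unread. In the table were 23 of the 24 mast cell genes listed and 9 were tested, while Tpsab1, Tpsb2, Tpsg1, Mrgprb1, Mrgprb2, Mrgprx2 and Smpx had no count in any library and the chymase Mcpt4 had at most 1. The list's summed level was 528 to 540 CPM for WT, 522 to 548 for Tet2KO, 516 to 524 for Id1KO and 509 to 518 for dKO, most of it Kit, the receptor used in the sort. The chymase Cma1 had 0 to 7 counts per library. Maob, a monoamine oxidase gene, had the list's largest called difference in Tet2KO and in dKO against WT, with 3 to 5 counts per WT library, 14 to 16 in Tet2KO, 1 to 2 in Id1KO and 13 to 15 in dKO (log2 fold changes 1.94 ± 0.4, adjusted p = 0.000361, and 1.87 ± 0.4, 0.00113). Il1rl1, the interleukin 33 receptor, was lower in Tet2KO than in WT (log2 fold change -0.41 ± 0.052, adjusted p = 3.76e-06) and higher in Id1KO (0.32 ± 0.047, 8.97e-05), and Slc18a2, the transporter that loads histamine into granules, was higher in Id1KO (0.33 ± 0.071, 0.00301) and lower in dKO than in Id1KO (-0.38 ± 0.073, 0.000872). Of the 9 tested, 2 were called higher and 2 lower in Tet2KO against WT (median log2 fold change 0.11), beside 32.8% of all genes called. In Id1KO against WT 3 were higher and 1 lower, beside 15%, while the median log2 fold change of the list was -0.10. In dKO against WT 3 were higher and 1 lower (median log2 fold change 0.17), beside 19.2%. In dKO against Tet2KO 3 were higher and 1 lower (0.03), beside 26.4%, and in dKO against Id1KO 3 and 3 (0.02), beside 19.3%.

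Of 20 basophil genes, 17 were tested. In Tet2KO against WT 4 were called higher and 1 lower (median log2 fold change 0.01), beside 32.8% of all genes called in either direction. In Id1KO against WT 3 were higher and 0 lower (0.01), beside 15%. In dKO against WT 3 were higher and 3 lower (median log2 fold change 0.07), beside 19.2%. In dKO against Tet2KO 3 were higher and 4 lower (0.03), beside 26.4%, and in dKO against Id1KO 3 and 3 (0.02), beside 19.3%. Prss34, the basophil protease mMCP-11, was 26.9 ± 2.4 CPM for WT, 32.0 ± 1.24 for Tet2KO, 23.2 ± 1.39 for Id1KO and 33.8 ± 2.82 for dKO. It was called higher in Tet2KO and in dKO than in WT (log2 fold changes 0.25 ± 0.069, adjusted p = 0.00821, and 0.33 ± 0.069, 0.0019), while Mcpt8, the other protease that marks basophils, was called in neither. Il4, the cytokine gene of activated basophils, had 0 to 5 counts per library. Aqp9, a water and glycerol channel gene, was lower in Tet2KO (-0.78 ± 0.066, adjusted p = 1.95e-08) and in dKO (-0.43 ± 0.063, 5.54e-05) when compared with WT. Ifitm1, an interferon-induced membrane gene, was higher than WT in all 3 other labels, with log2 fold changes of 1.05 in Tet2KO (adjusted p = 1.92e-11), 0.89 in Id1KO (8.44e-10) and 1.25 in dKO (1.94e-12).

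Signalling genes downstream of the IgE receptor, which other receptors of myeloid cells also use, were counted over a list of 20, each of them tested. In Tet2KO against WT 15 were called higher and 0 lower (median log2 fold change 0.16), in dKO against Tet2KO 0 higher and 13 lower (-0.14), in Id1KO against WT 0 higher and 6 lower (-0.06), and in dKO against Id1KO 8 higher and 1 lower (0.09). Over all genes, 16.6% were called higher in the first of these, 13.4% lower in the second, 7.77% lower in the third and 10.6% higher in the last. The kinase gene Syk exceeded WT in Tet2KO by 0.21 ± 0.028 (adjusted p = 1.07e-05) and the exchange factor gene Rasgrp4 by 0.95 ± 0.2 (0.00106), both on the log2 scale. Lyn and Lat were among the 5 not called. Fcer1a followed this direction in Tet2KO and Ms4a2 did not. Genes of monocytes and dendritic cells were also mostly higher in Tet2KO than in WT, 7 of 12 tested against 2 lower, beside 16.6% and 16.2% of all genes, with a summed level of 1936 to 1962 CPM against 1846 to 1887 in WT. Their part in the counts of signalling genes was not tested.

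Cytokine receptor genes, with genes of the kinase and STAT factors they use, were counted over a list of 14, of which 13 were tested. The list includes receptors of other cytokines, so its counts do not describe partners of Il5ra alone. In Tet2KO against WT 7 were called higher and 1 lower, beside 16.6% and 16.2% of all genes. Csf2rb, the beta chain shared by the receptors of interleukin 5, interleukin 3 and GM-CSF, was 105 ± 2.3 CPM in WT and 129 ± 2.42 in Tet2KO (log2 fold change 0.29 ± 0.041, adjusted p = 1.57e-05), and it was not called in Id1KO against WT, where Il5ra was higher (0.11 ± 0.041, 0.0758). Csf2ra, the alpha chain of the GM-CSF receptor, was the single gene called lower in Tet2KO (-0.53 ± 0.055, 3.03e-07). Csf2rb2, a close copy of Csf2rb, was called higher (0.64 ± 0.12, 0.000328), and reads of the 2 copies may be split between them.

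Among 22 transcriptional regulators of these lineages, 6 were called higher and 8 lower in Tet2KO against WT, beside 16.6% and 16.2% of all genes. Gata1, the GATA factor of erythroid, eosinophil and mast cell branches, was 51.0 to 52.1 CPM in WT, 29.7 to 32.3 in Tet2KO, 52.5 to 54.0 in Id1KO, with a dKO mean of 49.4. It was called lower in Tet2KO against WT (log2 fold change -0.73 ± 0.043, adjusted p = 1.07e-10) and was not called in Id1KO or dKO against WT, whereas Gata2 was called in all 3. Of 19 genes of granule assembly, 2 were called higher and 6 lower in dKO against WT, beside 10.2% and 8.97% of all genes. Srgn, whose proteoglycan holds granule proteases and amines, was 627 ± 16.5 CPM in WT and 536 ± 8.19 in dKO.

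Markers of other lineages moved with the same labels. Erythroid genes were lower in Tet2KO than in WT for 14 of 15 genes tested (median log2 fold change -0.84, beside 16.2% of all genes called lower), with a summed level of 1118 to 1130 CPM against 1845 to 1904 in WT, 2057 to 2078 in Id1KO and 1867 to 1870 in dKO. Megakaryocyte genes were higher in Id1KO for 4 of 10 tested (median 0.42, beside 7.26% of all genes called higher), with a summed level of 246 to 258 CPM against 172 to 179 in WT, 177 to 188 in Tet2KO and 182 to 197 in dKO. The megakaryocyte sum thus moved with Prg2, Epx, Il5ra and Gata2 in Id1KO, and the erythroid sum with Gata1, Prg2 and Gata2 in Tet2KO. In dKO the erythroid sum lay within the WT range and Gata1 was not called against WT (-0.06, adjusted p = 0.318). Prg2 was lowest in dKO, and Gata2 was called lower there than in WT. Neutrophil granule genes summed to 12801 to 12861 CPM for WT, 14214 to 14431 for Tet2KO, 10653 to 11585 for Id1KO and 10580.2 to 11665 for dKO. All 12 of these neutrophil genes were tested. In dKO against WT 4 were called higher and 3 lower (median log2 fold change 0.22), beside 10.2% and 8.97% of all genes. In dKO against Id1KO 5 were higher and 1 lower (0.2), beside 10.6% and 8.7%. The neutrophil sum was thus lower in dKO than in WT, while the median gene of the list was higher. The part of these cell types in the members' values was not tested.

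For each member the 3 genes with the most similar levels were named, by Pearson's r of log2(CPM + 0.5) over the 12 libraries, among tested genes with a mean of at least 5 CPM. These libraries share 4 labels, so r mainly follows the label means, and it carries no test. For Prg2 they were Epx (0.97), Gfi1 (0.95) and Dock9 (0.95), and for Epx Tnfaip3 (0.98), Prg2 (0.97) and Prss50 (0.96). Gata2 was closest to Epx (0.95), Prss50 (0.94) and Mavs (0.94), and Il5ra to Unc119, Als2cl and Nfkbia (0.91 each). Gfi1, a transcriptional repressor that acts in granulocyte precursors, was 74.6 CPM for WT, 68.0 for Tet2KO, 80.9 for Id1KO and 60.6 for dKO. Tnfaip3, an inhibitor of NF-kB signalling, was 37.4, 30.5, 49.1 and 31.2 CPM in the same order.

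Ms4a2 was closest to Mgl2, Olr1 and Afap1 (0.97 each). Mgl2, a C-type lectin of macrophages and dendritic cells, was 14.6 CPM for WT, 5.16 for Tet2KO, 11.7 for Id1KO and 2.57 for dKO, and Olr1, a scavenger receptor, 10.1 in WT and 4.20 in dKO. Both thus had a larger relative difference between WT and dKO than Ms4a2. Fcer1a was closest to Klhl24 (0.96), Grk3 (0.93) and Selenop (0.93), and its r with Ms4a2 was -0.37. Hdc was closest to Padi2 (0.97), Retreg1 (0.97) and Synj2 (0.96), and Cpa3 to Dapp1 (0.97), Adipor2 (0.95) and Pde3b (0.94). Mcpt8 reached 0.88 with Ulbp1, 0.88 with Paox and 0.88 with Sclt1, and Gzmb 0.87 with Cep44, 0.82 with Ap4b1 and 0.82 with Higd1a, the lowest of the 10 members' closest values.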

How the data were processed

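Estimated counts per gene for 12 libraries were used as deposited. The labels name the Qiagen micro kit for RNA and Illumina's stranded total RNA kit, and the submitters' processing notes name STAR, RSEM and mm10, with versions not given in the sources used here. The deposited estimated counts (5.06% not whole) were rounded. Libraries were grouped by the genotype label, and the suffix in the titles was read as the replicate number. Identifiers matched GENCODE M21 (GRCm38) for all 55450 genes.

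Genes were kept by edgeR's filterByExpr (minimum count 10), scaled by TMM and fitted with edgeR 4.0.16 in R 4.3.3 in 1 quasi-likelihood model of 12 libraries, with two-sided tests adjusted over 14346 genes at 0.05. The model was tested on simulated data. An exact test of 3 against 3 libraries cannot go below p = 0.1. All 12 pairs of libraries within a label exceeded sampling noise and were kept apart, but repeat libraries of 1 cell sample can exceed it too, so this does not show separate samples. Similar exons were sought with blast 2.17.0 (95% identity over 100 bp). The RNA strand setting of the counting is not given, and no member shares exonic bases with another gene.

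The members and lists were chosen with earlier results of these data known. Named genes were the members, the 3 genes most like each, and from each list genes among the 3 most abundant and the 3 called genes with the largest change in a comparison. Other genes were picked from the lists for their roles after their values were seen: Syk, Gata1, Csf2rb, Prss34, Cebpe, Ear2, Prf1, Gzma, Ccr3, Il4, Il5, Lyn, Lat, Cma1, Mcpt4 and the mast cell genes at 0. Alternatives were DESeq2 1.42.0, RLE scaling, scaling without mitochondrial and small RNA genes, no filter, fits of only the compared libraries, summed libraries per label, 12 leave-one-out fits and a replicate block.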

Additional observations from a re-analysis of the deposited data

Results flagged for a closer look

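Differences between the label comparisons, tested as the interaction in edgeR's quasi-likelihood fit, were past the threshold for 7 members: the Tet2 label's log2 fold change with the Id1-null label minus that without it was -0.66 for Prg2, -0.61 for Epx, -1.56 for Il5ra, -0.24 for Hdc, -0.20 for Gata2, -0.43 for Cpa3 and -0.45 for Fcer1a. For Prg2, Epx, Gata2 and Il5ra, the level was highest in Id1KO, and for Hdc and Cpa3 it was lowest in dKO. For Fcer1a it was highest in Tet2KO. Over all genes tested, 14.5% passed this test. The calls of Il5ra, Gata2 and Fcer1a did not hold in every leave-one-out fit.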

How the results depend on the processing

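Of 60 member values, 37 were called, and 28 of those calls held in each of the 12 leave-one-out fits, while 9 were lost in at least 1. Over the 720 leave-one-out values, 39 were lost calls, 1 was gained (Ms4a2 in the interaction without WT replicate 3, -0.26, adjusted p = 0.0443) and 0 were reversed. The count of members called ranged from 3 to 5 in Id1KO against WT, 4 to 7 in the interaction, 4 to 6 in dKO against Tet2KO and 5 to 6 in dKO against WT. It stayed at 7 in dKO against Id1KO and at 6 for Tet2KO. The low count of 3 came without WT replicate 2 or without Id1KO replicate 3, and that of 4 in the interaction without Tet2KO replicate 2.

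With DESeq2 the count of all genes called was 1418 in Id1KO against WT (2156 with edgeR), and 4 members were called (5 with edgeR). In the interaction DESeq2 called 1350 genes (2078 with edgeR) and 4 members (7 with edgeR). There Il5ra had no adjusted p, Gata2 had 0.0589 and Fcer1a 0.123. Without the filter Fcer1a lost its interaction call (0.0617), and with RLE scaling Hdc lost its call in Id1KO against WT (0.0577), which left 4 members called there, each higher. No scaling moved the median of all genes by over 0.1. Summing libraries per label left 0 members called in each of the 5 pairwise comparisons. It gave 232 genes for the Tet2 label (both of its comparisons), 7 for the Id1 label (both of its comparisons) and 11 in dKO against WT, and reversed Cpa3 in Tet2KO against WT (-0.036, adjusted p = 0.913) and Prg2 in dKO against Tet2KO (0.12, adjusted p = 0.78), since its additive effects allow no interaction.

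Whether the replicate numbers pair libraries was not settled. After each label's mean was removed, same-numbered libraries correlated between -0.28 and 0.31, with 7 of 18 pairs over 0.1. Those with other numbers correlated between -0.32 and 0.45, with 9 of 36 over 0.1. With 3 libraries per label, these values can neither show nor exclude a pairing. With the replicate block, members called were 6 for Tet2KO, 4 for Id1KO and 6 for dKO with WT as the reference, 6 and 7 for dKO with Tet2KO or Id1KO as the reference, and 7 for the interaction. The single call lost was Hdc in Id1KO (adjusted p = 0.0605). All genes called were 4523, 1952, 2565, 3592, 2576 and 1871 in the same order. Depth limits Il5ra, with 8 to 42 counts per library.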
